A study of Mus musculus with 18 samples.

Results

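The 10 genes described here carry the Wnt signal through the epithelium: the ligands Wnt3 and Wnt11, the receptors Fzd5 and Fzd7, the co-receptors Lrp5 and Lrp6, the R-spondin receptor Lgr4, the transducer Ctnnb1 and the DNA-binding factors Tcf7l2 and Tcf7. They were chosen by name and found by symbol among the 55487 genes of the counts table, and all 10 were present. A filter on low counts left 15247 genes for testing, among them 9 of the 10. Wnt11 did not pass it.

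RNA was sequenced from organoids, miniature crypt and villus cultures grown from the small intestine of 5 wild-type C57BL/6 mice. The 4 groups were organoids given HCl vehicle (4 samples, mice 1 to 4), norepinephrine at 1 µM (5 samples, mice 1 to 5), DMSO vehicle (4 samples, mice 1 to 4) and UK14304 at 1 µM (5 samples, mice 1 to 5), each for 4 days. Norepinephrine acts on α and β adrenergic receptors and UK14304 on the α2 class, and each was compared with the vehicle it was dissolved in. All mice were female per the study's methods, their age is not given in the labels, and the cultures had been passaged before treatment. Mouse 5 has no vehicle sample. The labels do not say how many cultures each mouse gave, so a difference between mice cannot be told apart from one between cultures.

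Wnt proteins are short-range ligands that bind a Frizzled receptor together with Lrp5 or Lrp6. This stops the destruction of β-catenin, the product of Ctnnb1, which then enters the nucleus and switches on genes through TCF factors. R-spondins amplify the signal by binding Lgr receptors and removing the ligases that degrade Frizzleds. In the small intestine the pathway maintains the crypt stem cells. Paneth cells make Wnt3, while mesenchymal cells beneath the crypt supply other Wnts and R-spondins, and organoids, which lack the mesenchyme, are commonly grown with added R-spondin.

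Total counts were 21.87 to 27.85 M per sample. A ribosomal RNA gene took over 1% of the counts in 7 of the 18 libraries, namely the HCl library of mouse 4, the norepinephrine libraries of mice 4 and 5, the DMSO libraries of mice 1 to 3 and the UK14304 library of mouse 1. The libraries also differed in a GC slope, the change of a gene's level, relative to its mean over all libraries, with the GC content of its longest transcript. Among norepinephrine libraries this slope was 0.195 log2 units per 10 points of GC in mouse 4 and between -0.146 and -0.0699 in the other mice, and it was 0.0435 to 0.0732 in the HCl libraries. The norepinephrine library of mouse 4 therefore stood apart from its group, and results that rest on it are also given without it. The UK14304 library of mouse 4 had the lowest slope of all 18, -0.222, against -0.0877 to 0.0605 in the other UK14304 libraries. The label was checked against markers: the 6 epithelial markers summed to between 6662 and 7489 CPM (counts scaled to library size, normalized for composition), while none of 8 mesenchymal markers passed the filter, their sum was 0.11 to 0.562 CPM, and Dcn, Lum and Foxl1 were at 0 in every library.

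The genes lie as follows in GRCm38. Of the ligands, Wnt3 (ENSMUSG00000000125) at chr11:103774150-103817957 on the plus strand, and Wnt11 (ENSMUSG00000015957) at chr7:98835112-98855195 on the plus strand. Of the receptors, Fzd5 (ENSMUSG00000045005) at chr1:64730558-64737751 on the minus strand, and Fzd7 (ENSMUSG00000041075) at chr1:59482424-59486955 on the plus strand. Of the co-receptors, Lrp5 (ENSMUSG00000024913) at chr19:3584828-3686564 on the minus strand, and Lrp6 (ENSMUSG00000030201) at chr6:134446476-134566965 on the minus strand. The R-spondin receptor has Lgr4 (ENSMUSG00000050199) at chr2:109917647-110014257 on the plus strand. The nuclear side has Ctnnb1 (ENSMUSG00000006932) at chr9:120929216-120960507 on the plus strand, Tcf7l2 (ENSMUSG00000024985) at chr19:55741820-55933654 on the plus strand, and Tcf7 (ENSMUSG00000000782) at chr11:52252371-52283331 on the minus strand.

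The promoters of the ligands Wnt3, the highest Wnt of these cultures, and Wnt11, close to undetected, are shown for that contrast. RefSeq promoters (GRCm38.p6, 250 bases before to 50 bases after the start, 5′ to 3′) were found for 8 of the 10 members, in 12 entries. Capitals mark the letters CTTTGA, a form of the core that TCF factors bind, read on either strand. Other forms of that core were not searched. The Wnt3 window spans chr11:103773925-103774224 and the Wnt11 window chr7:98834862-98835161, both on the plus strand.

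Wnt3: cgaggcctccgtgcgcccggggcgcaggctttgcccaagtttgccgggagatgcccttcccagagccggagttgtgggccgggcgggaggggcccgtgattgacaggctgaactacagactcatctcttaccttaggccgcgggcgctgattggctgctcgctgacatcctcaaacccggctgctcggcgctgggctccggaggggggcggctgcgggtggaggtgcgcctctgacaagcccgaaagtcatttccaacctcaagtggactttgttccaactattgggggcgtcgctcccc

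Wnt11: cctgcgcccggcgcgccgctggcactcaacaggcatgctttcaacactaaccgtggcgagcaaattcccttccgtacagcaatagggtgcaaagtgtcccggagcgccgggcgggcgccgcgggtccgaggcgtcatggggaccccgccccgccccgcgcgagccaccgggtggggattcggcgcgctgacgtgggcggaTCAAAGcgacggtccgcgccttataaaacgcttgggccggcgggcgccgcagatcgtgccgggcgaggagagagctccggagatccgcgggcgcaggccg

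Of the 12 promoter entries of the members, 1 held CTTTGA on either strand, the Wnt11 entry printed here, where the match is on the opposite strand at bases 201 to 206 and so reads TCAAAG. Wnt3 has no capitals because its window holds no CTTTGA on either strand, which does not speak to other forms of the core. Of all 32851 promoters of the same length, 16.0% held it. TATAAA, a core promoter element, was found on either strand in 4 of the 12 entries and in 13.6% of all promoters. The printed Wnt11 promoter holds it, and the Wnt3 promoter does not. The Wnt3 window held 24 CpG dinucleotides and the Wnt11 window 45, against a median of 7 over all promoters. These matches describe the letters of a window and were not read as bound sites.

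The members spanned a wide range of levels, and their order within a library was nearly fixed. Levels between genes are given in RPKM, which is the CPM divided by the length of the merged exons in kilobases. Ctnnb1 was highest, with a median of 172 RPKM over the 18 libraries, followed by Fzd5 (48.8), Lgr4 (38.7), Lrp5 (19.4), Lrp6 (13.7), Fzd7 (12.6), Tcf7l2 (9.90), Tcf7 (4.78) and Wnt3 (2.93), with Wnt11 last at 0.0144. Each neighbour in this order was above the next in 18 of 18 libraries, except Lrp6 and Fzd7, which kept their order in 16. The ranges of Lrp6 and Fzd7, of Fzd7 and Tcf7l2 and of Tcf7 and Wnt3 overlapped, and the other neighbours were separated over all libraries. The reads were counted without strand, and parts of 3 members' exons lie opposite another gene: 17.8% of the exon bases of Fzd5 (Gm38058), 15.1% of Ctnnb1 (mainly Ulk4) and 8.80% of Wnt11 (Gm8398). Reads there cannot be told apart from the partner's. The Lrp5 transcript shares stretches of at least 50 bases with transcripts of 14 other genes, where the counting could lose or split its reads.

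**Figure D1:**
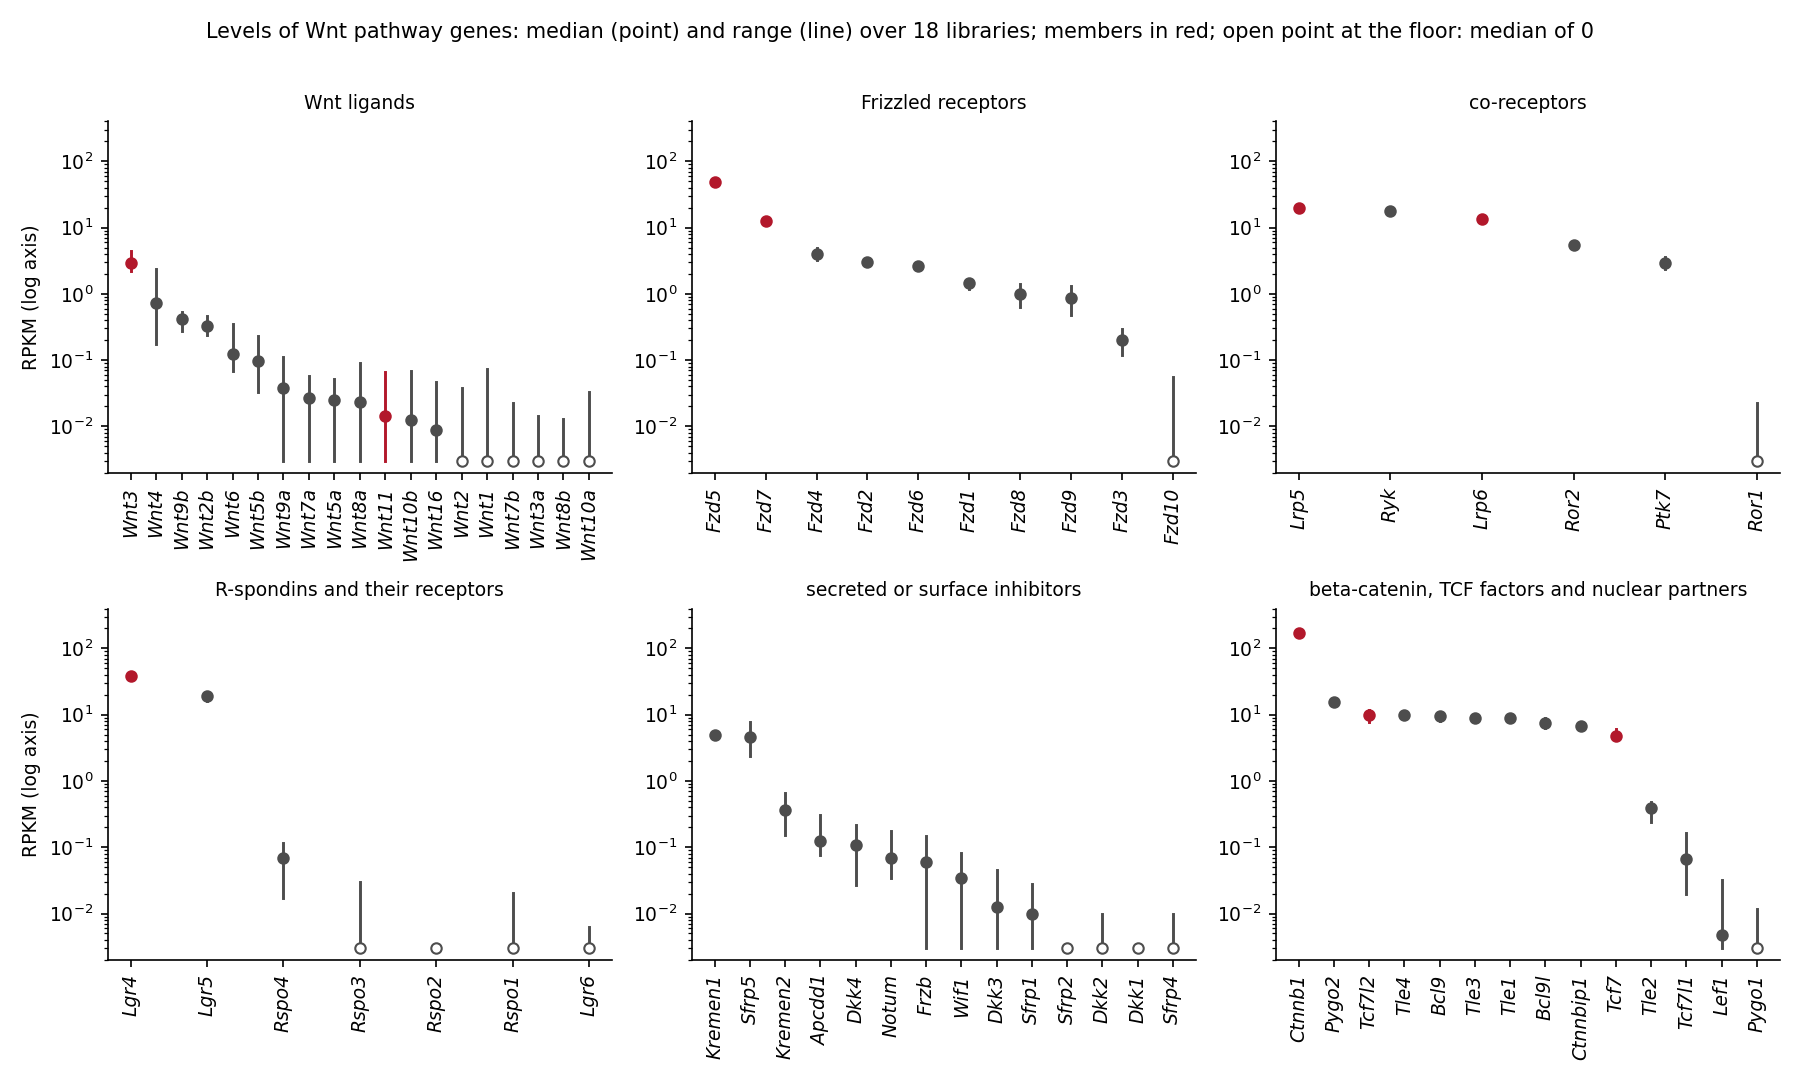
Levels of Wnt pathway genes in 6 families. Points give the median and lines the range of RPKM over the 18 libraries on a log axis, with the members in red. Wnt3 led the ligands at 2.93 RPKM, Fzd5 the Frizzleds at 48.8 and Lgr4 the R-spondin receptors at 38.7.

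Wnt3 had the highest median level of the ligands. It made up a median of 58.6% of the RPKM summed over 19 Wnt genes, from 41.2% to 78.6% among the libraries. This share differed between mice, from 41.2% to 46.2% in the libraries of mouse 2 and from 71.4% to 78.6% in those of mouse 3. The next ligands were Wnt4, with a median of 0.735 RPKM and a range of 0.175 to 2.40, Wnt9b (0.417) and Wnt2b (0.325). Of the 19 ligands 6 passed the filter, and Wnt3a, the form commonly added to cultures, had at most 1 count in a library. Both genes that Wnt proteins need to leave the cell were read, with medians of 4.14 RPKM for Wls, their carrier, and 1.46 for Porcn, which attaches their lipid.

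Wnt11, a ligand known mostly for signalling without β-catenin, was at the edge of detection. It had 31 counts in all 18 libraries together. The HCl libraries of mice 1 to 4 had 2, 6, 0 and 3 counts, the norepinephrine libraries of mice 1 to 5 had 4, 1, 2, 2 and 2, the DMSO libraries of mice 1 to 4 had 0, 1, 3 and 1, and the UK14304 libraries of mice 1 to 5 had 2, 1, 0, 1 and 0. The groups overlapped fully. In the 4 libraries at 0, a count of 0 allows a level of up to 0.114 to 0.134 CPM (3 counts, counting error only), and no fold change is given.

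Fzd5 and Fzd7 held most of the Frizzled message. Fzd5, the receptor that the intestinal crypt is known to need, made up 62.3% to 67.0% of the RPKM summed over 10 Frizzled genes, and Fzd7, a Frizzled of the crypt stem cells, 15.6% to 19.1%. The other Frizzleds had medians of 3.99 RPKM (Fzd4) or less, and Fzd10 had at most 5 counts. Of the co-receptors, Lrp5 was above Lrp6 in every library, with a median ratio of 1.41. Lgr4 was above Lgr5, which marks the stem cells, at 38.7 against 19.1 RPKM, and Lgr6 had at most 1 count. The 4 R-spondin genes did not pass the filter and had at most 7 counts in a library. Among TCF factors Tcf7l2, which the intestinal epithelium is known to need, made up 57.2% to 72.6% of the RPKM of the 4 genes, Tcf7 most of the rest, and Lef1 and Tcf7l1 did not pass the filter.

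The first question was whether norepinephrine changed these genes against HCl vehicle. Of the 9 members tested, 0 passed an adjusted p of 0.05 (edgeR's quasi-likelihood test, Benjamini-Hochberg adjustment over all genes tested), where 0 genes, or 0% of the 15247, passed. None of the 9 passed in DESeq2 either. At an unadjusted p under 0.05 there was 1 member, Lrp5, against 6.18% of all genes. The median log2 fold change was -0.05 over the 9 members and -0.01 over all genes tested, with 4 members above 0 and 5 below. In no member did the norepinephrine and HCl libraries separate without overlap, which 1.42% of all genes did.

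The same was asked of UK14304 against DMSO vehicle. Of the 9 members 0 passed in edgeR, where 6 genes, or 0.0394% of those tested, did, and none passed in DESeq2. Lrp5 was again the only member at an unadjusted p under 0.05, which 11.2% of all genes reached. The median log2 fold change was -0.04 over the 9 members and -0.00 over all genes tested, with 3 above 0 and 6 below, and the UK14304 and DMSO libraries overlapped in every member, whereas they did not in 3.51% of all genes. With the mouse as a block, which uses the pairing of samples, 0 members passed for either agonist, while 0.105% of all genes passed for norepinephrine and 1.22% for UK14304. At an unadjusted p under 0.05 with the block there were 2 members with norepinephrine, Wnt3 and Lrp5, beside 1280 of the 15247 genes. With UK14304 there was 1, Lrp5, beside 2256.

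**Figure D2:**
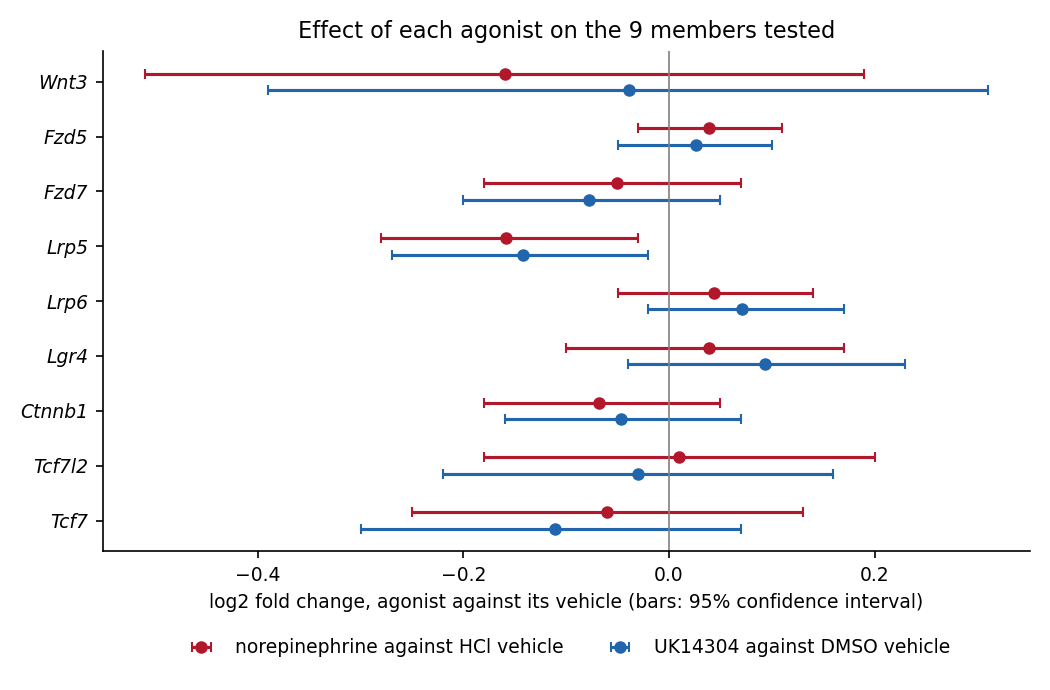
Log2 fold change of each of the 9 members tested, for norepinephrine against HCl vehicle (red) and UK14304 against DMSO vehicle (blue), with 95% confidence intervals from edgeR. All intervals span 0 except those of Lrp5, -0.28 to -0.03 and -0.27 to -0.02, whose adjusted p-values were 0.713 and 0.408.

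The intervals bound the size of any change that was missed. They were narrowest for Fzd5 (-0.03 to 0.11 with norepinephrine, -0.05 to 0.10 with UK14304, on the log2 scale), and widest for Wnt3 (-0.51 to 0.19 and -0.39 to 0.31). For each of the 8 members other than Wnt3, a change beyond 0.30 on the log2 scale in either direction lay outside both intervals. In bulk RNA a lower level in each cell cannot be told apart from fewer cells of the type that makes the message. Some members below went the same way in all 4 paired mice. The share of all genes that did so was not counted, so this agreement has no background.

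Wnt3 was the ligand with enough reads to compare, at 149 to 350 counts per library. In CPM, the HCl libraries of mice 1 to 4 held 10, 7.91, 12.6 and 9.71, and the norepinephrine libraries of mice 1 to 5 held 9.13, 6.84, 10.3, 8.87 and 9.91. Each of the 4 mice with both samples had less Wnt3 with norepinephrine, by 0.13 to 0.30 on the log2 scale, but mice differed more than that and the groups overlapped. The log2 fold change was -0.16 (SE 0.168, adjusted p = 0.791 in edgeR), and -0.18 (SE 0.0832, adjusted p = 0.589) with the mouse as a block. Single libraries weighed on this value, which was -0.03 without the HCl library of mouse 3, -0.08 without the norepinephrine library of mouse 2 and -0.25 without the HCl library of mouse 2. With DMSO, mice 1 to 4 held 8.66, 7.74, 13.5 and 8.22 CPM, and with UK14304, mice 1 to 5 held 8.81, 8.07, 11.8, 8.12 and 9.68. Here 2 of 4 mice were higher and 2 lower, and the log2 fold change was -0.04 (SE 0.167, adjusted p = 0.944 in edgeR). Without the DMSO library of mouse 3, the highest of all, it was 0.19 (adjusted p = 0.527).

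Paneth markers, the genes of the cells that make Wnt3, are given beside it. All 6 (Lyz1, Defa17, Defa22, Defa24, Ang4 and Mmp7) had negative log2 fold changes with both agonists, with medians of -0.28 and -0.26. In edgeR 0 of the 6 passed without the block. With the block, Lyz1, the Paneth lysozyme, passed with norepinephrine (-0.37, adjusted p = 0.0019) and UK14304 (-0.31, adjusted p = 0.0031), Defa22, a defensin, with both, and Ang4 with UK14304. Their summed level ranged from 2432 to 3688 CPM in HCl, 1988 to 2760 in norepinephrine, 2309 to 3571 in DMSO and 2017 to 3002 in UK14304 libraries. Their part in the level of Wnt3 was not tested.

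Fzd5 hardly varied. Its levels were 335, 317, 319 and 344 CPM in the HCl libraries of mice 1 to 4, 339, 331, 338, 343 and 338 in the norepinephrine libraries of mice 1 to 5, 339, 335, 332 and 335 in the DMSO libraries and 344, 337, 339, 352 and 333 in the UK14304 libraries. All 18 values thus lay between 317 and 352 CPM, and the groups overlapped. Of the 4 paired mice, 3 were higher with norepinephrine and 4 with UK14304. The log2 fold changes were 0.04 (SE 0.0352, adjusted p = 0.765 in edgeR) with norepinephrine and 0.03 (SE 0.0352, adjusted p = 0.789) with UK14304. With the GC trend removed from each library they were 0.08 (unadjusted p = 0.0365, adjusted p = 0.983 in edgeR) and 0.07 (unadjusted p = 0.0781, adjusted p = 0.51). Its share of the Frizzled RPKM was 64.0% ± 1.38 (SD, n = 4) with HCl, 65.8% ± 0.713 (n = 5) with norepinephrine, 64.3% ± 1.02 (n = 4) with DMSO and 66.4% ± 0.511 (n = 5) with UK14304. The shares of the UK14304 libraries, 65.6% to 67.0%, lay above those of the DMSO libraries, 63.3% to 65.2%. This share was looked at after the values were known and was not tested.

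Fzd7 ranged from 51.8 to 65.4 CPM, with means of 58.9 ± 3.04 (SD, n = 4) in HCl, 56.8 ± 2.63 (n = 5) in norepinephrine, 58.5 ± 5.47 (n = 4) in DMSO and 55.5 ± 3.32 (n = 5) in UK14304 libraries. In all 4 paired mice it was lower with either agonist, by 0.02 to 0.11 on the log2 scale. The log2 fold changes were -0.05 and -0.08, with adjusted p-values of 0.812 and 0.599 in edgeR. The other 7 Frizzleds tested had 0 genes passing with either agonist, and Fzd9 had the largest value, -0.63 with norepinephrine (adjusted p = 0.713).

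**Figure D3:**
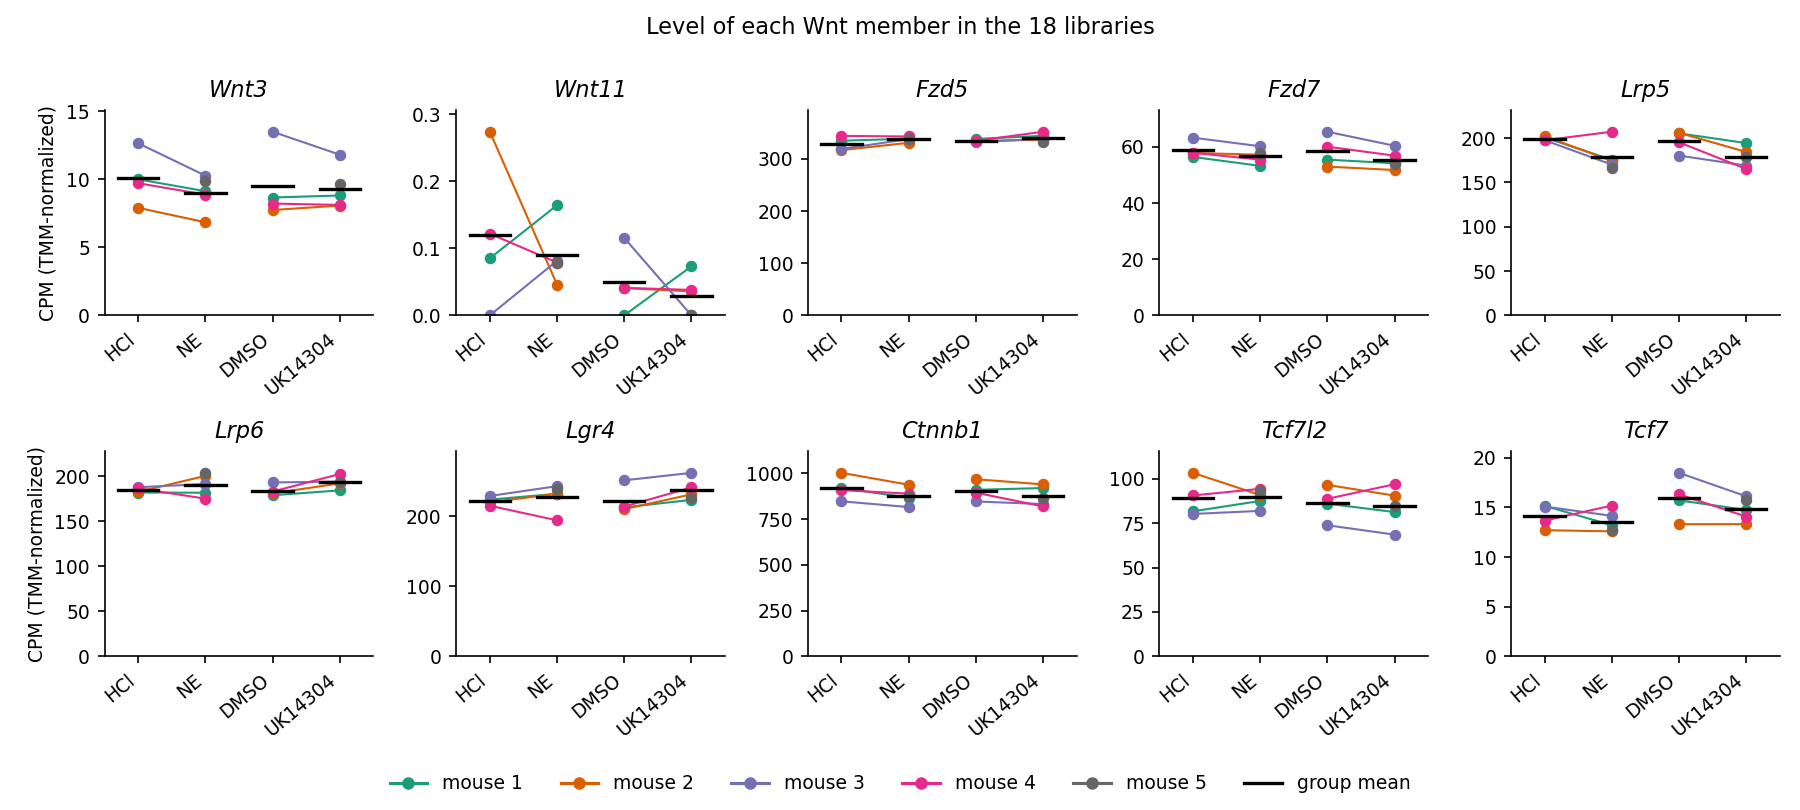
CPM of the 10 members in each of the 18 libraries, by group. Lines join the vehicle and agonist samples of one mouse, colours mark the mouse and black bars the group mean. Mouse 5 has no line. The groups overlap in every panel, the Lrp5 line of mouse 4 goes up with norepinephrine where those of mice 1 to 3 go down, and mouse 3 is highest in Wnt3 and Fzd7 in all 4 groups.

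Lrp5, a Wnt co-receptor, was the member whose values lay furthest from its vehicles relative to their error. The HCl libraries of mice 1 to 4 held 201, 202, 198 and 198 CPM. The norepinephrine libraries of mice 1 to 5 held 175, 174, 170, 207 and 167. In norepinephrine, 4 of 5 libraries were thus below every HCl library and that of mouse 4 was above them all. The log2 fold change was -0.16 (SE 0.0603, unadjusted p = 0.0158, adjusted p = 0.713 in edgeR).

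The DMSO libraries of mice 1 to 4 held 205, 206, 180 and 195 CPM of Lrp5, and the UK14304 libraries of mice 1 to 5 held 194, 184, 169, 165 and 178. All 4 paired mice were lower with UK14304, by 0.08 to 0.24 on the log2 scale, though the groups overlapped. The log2 fold change was -0.14 (SE 0.0603, unadjusted p = 0.0282, adjusted p = 0.408 in edgeR). The UK14304 library of mouse 4, with the lowest Lrp5 of all 18 libraries, also had the lowest GC slope, -0.222. Leaving out any sample or mouse without the block, the log2 fold change ran from -0.17 to -0.11.

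Lrp6, the other co-receptor, had values above rather than below its vehicles on average. Its means were 185 ± 2.90 CPM (SD, n = 4) with HCl, 191 ± 12.2 (n = 5) with norepinephrine, 184 ± 6.31 (n = 4) with DMSO and 194 ± 6.46 (n = 5) with UK14304. Of the 4 paired mice, 2 were higher with norepinephrine and 4 with UK14304. The log2 fold changes were 0.04 (adjusted p = 0.785 in edgeR) and 0.07 (adjusted p = 0.537). Without the norepinephrine library of mouse 4 the first was 0.09 (adjusted p = 0.278). Within a library, the log2 ratio of Lrp5 to Lrp6 in RPKM was 0.63, 0.63, 0.56 and 0.57 in the HCl libraries of mice 1 to 4 and 0.44, 0.29, 0.32, 0.73 and 0.20 in the norepinephrine libraries of mice 1 to 5. It was 0.69, 0.67, 0.39 and 0.58 in the DMSO and 0.56, 0.43, 0.29, 0.19 and 0.37 in the UK14304 libraries. Of the 4 paired mice, 3 had a lower ratio under norepinephrine and 4 under UK14304. The ratio was chosen after the values were seen, was not corrected for the GC slope and has no test. Lrp5 and Lrp6 followed that slope in opposite directions (r = 0.95 and -0.86, described below). With the GC trend removed, the log2 fold changes of Lrp6 were 0.01 with norepinephrine and 0.04 with UK14304.

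The level of Lrp5 moved with the GC slope of the libraries. Its longest transcript holds 54.7% GC, against 46.0% in that of Lrp6 and 46.3% in that of Lgr4. Over the 18 libraries, the log2 CPM of Lrp5 correlated with the slope at r = 0.95 (Spearman's rho 0.96), Lrp6 at r = -0.86 (rho -0.80) and Lgr4 at r = -0.82 (rho -0.89). Without the 2 libraries of most extreme slope, r was 0.97, -0.78 and -0.80. Among the other members over all 18 libraries, Fzd7 (53.9% GC) had r = -0.18, Fzd5 (52.7%) -0.27, Wnt3 (52.6%) -0.09 and Tcf7 (52.3%) 0.19. Ctnnb1 (50.3%) had 0.55 and Tcf7l2 (47.3%) 0.14. The points share libraries and the slope was computed from the same counts, so these values are a description. After the GC trend was removed from each library, the log2 fold change of Lrp5 was -0.10 with norepinephrine and -0.08 with UK14304. The 95% intervals were then -0.17 to -0.03 and -0.16 to -0.01, the unadjusted p-values 0.0107 and 0.0262 and the adjusted p-values 0.983 and 0.389 in edgeR.

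**Figure D4:**
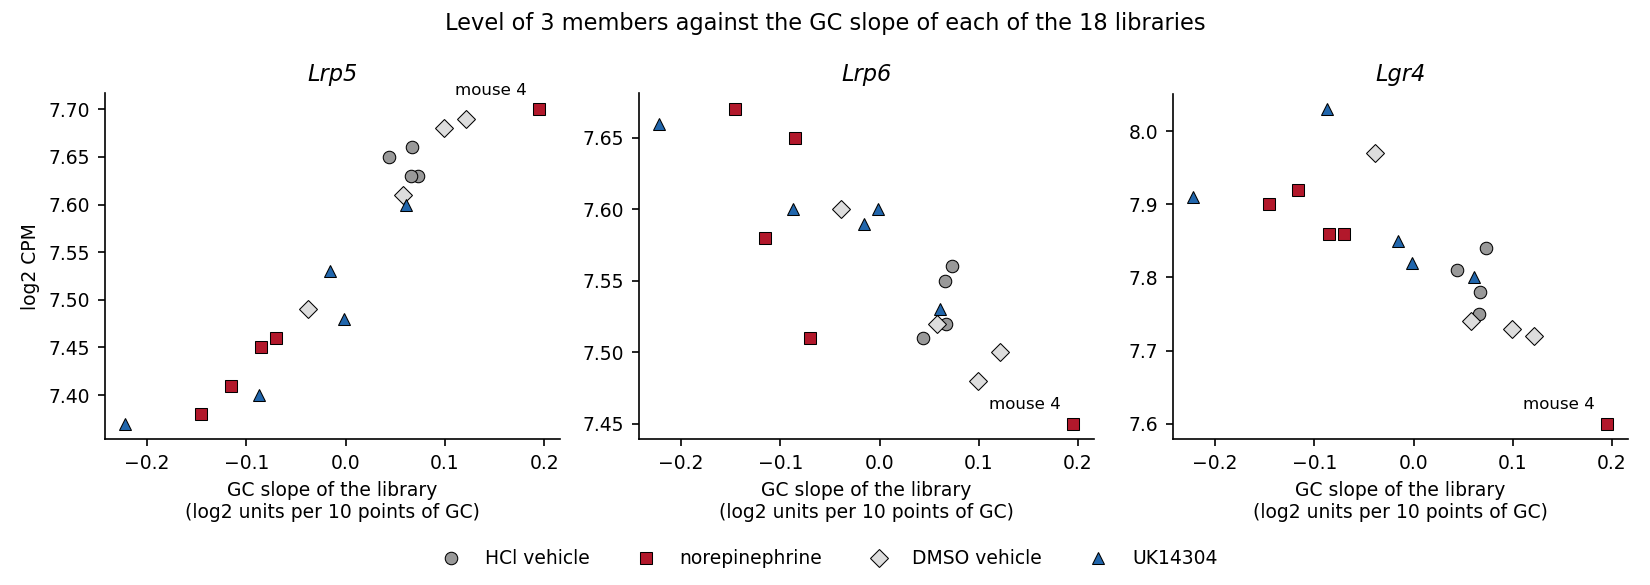
Level (log2 CPM) of Lrp5, Lrp6 and Lgr4 in each of the 18 libraries against the GC slope of the library, in log2 units per 10 points of GC. Marks give the group, and the norepinephrine library of mouse 4, with a slope of 0.195, is named. Lrp5 rises and Lrp6 and Lgr4 fall along the slope, with r of 0.95, -0.86 and -0.82.

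Lrp5 passed with norepinephrine only where the libraries of mouse 4 were left out and the mouse was also a block. Without the norepinephrine library of mouse 4 alone, its log2 fold change was -0.20 (adjusted p = 0.0994 in edgeR). Without all samples of mouse 4 it was -0.22 (adjusted p = 0.0616), and 0 of 9 members and 1 gene in all, or 0.00655% of those tested, passed. With the block as well it was -0.21 (adjusted p = 0.000387), and Lrp5 was the only 1 of 9 members to pass, where 15.1% of all genes passed.

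The HCl and norepinephrine libraries of lower ribosomal RNA share are those of mice 1 to 3. In these, without the block, Lrp5 was at -0.20 (adjusted p = 0.0997 in edgeR), and 0 members and 4 genes in all, or 0.0277%, passed. With the block it passed (-0.20, adjusted p = 1.71e-06), again alone among the members, where 19.6% of all genes passed. With the block and the GC trend removed, 2 members passed, Lrp5 (-0.12, adjusted p = 0.0142) and Fzd5 (0.11, adjusted p = 0.0197), and 4.16% of all genes. The blocked fits without mouse 4 and all fits on these libraries were chosen after the data were seen. Where 1 of 9 members passed, that is no larger a share than the background, and in the last fit it is 2 of 9 beside 4.16%.

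Lgr4, the R-spondin receptor with the higher level, held 224, 220, 229 and 215 CPM in the HCl libraries of mice 1 to 4 and 232, 232, 243, 194 and 238 in the norepinephrine libraries of mice 1 to 5. The library of mouse 4 was the lowest of all 18, the others lay above every HCl library, and the log2 fold change was 0.04 (SE 0.0649, adjusted p = 0.873 in edgeR). Without that library it was 0.10 (SE 0.0593, adjusted p = 0.337). The DMSO libraries held 213, 210, 251 and 214 CPM and the UK14304 libraries 223, 231, 262, 241 and 227. All 4 paired mice were higher with UK14304, by 0.06 to 0.17 on the log2 scale, and the log2 fold change was 0.09 (SE 0.0649, adjusted p = 0.564). Lgr5 had log2 fold changes of 0.06 and -0.05, with adjusted p-values of 0.849 and 0.831.

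Ctnnb1, which encodes β-catenin, ranged from 816 to 1003 CPM. Its means were 920 ± 64.0 (SD, n = 4) with HCl, 877 ± 43.9 (n = 5) with norepinephrine, 905 ± 50.1 (n = 4) with DMSO and 876 ± 52.8 (n = 5) with UK14304. All 4 paired mice were lower with norepinephrine, by 0.03 to 0.10 on the log2 scale, and 3 of 4 with UK14304. The log2 fold changes were -0.07 (adjusted p = 0.747 in edgeR) and -0.05 (adjusted p = 0.754), within the spread between samples. Its message level does not report on the protein, which the pathway controls by its breakdown.

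The TCF factors were likewise called in neither comparison. Tcf7l2 had means of 88.9 ± 10.6 CPM (SD, n = 4) with HCl, 89.5 ± 5.00 (n = 5) with norepinephrine, 86.2 ± 9.42 (n = 4) with DMSO and 84.4 ± 10.7 (n = 5) with UK14304, and log2 fold changes of 0.01 and -0.03 (adjusted p = 0.98 and 0.919 in edgeR). Tcf7, itself a target of the pathway, had means of 14.15 ± 1.19, 13.57 ± 1.08, 15.95 ± 2.13 and 14.78 ± 1.15 CPM in these groups, and log2 fold changes of -0.06 and -0.11 (adjusted p = 0.857 and 0.621). Between the vehicles, all 4 mice had less Tcf7 in HCl than in DMSO, with a log2 fold change of -0.17 (adjusted p = 1 in edgeR).

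Whether the agonists differed in their effects was tested as the difference between both fold changes. Of the 9 members 0 passed in edgeR, and 0% of all genes passed. The differences, norepinephrine effect minus UK14304 effect, ran from -0.12 for Wnt3 (95% interval -0.62 to 0.38) to 0.05 for Tcf7 (-0.21 to 0.31). The vehicles, which show how far these genes move without an agonist, gave no call in any member either (0 of 9 in edgeR, 0% of all genes). DESeq2 called 0 members in both. At an unadjusted p under 0.05 in edgeR without the block, neither comparison had a member. With the block, Tcf7 was under it between the vehicles (unadjusted p = 0.0315, adjusted p = 1).

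For most members, a large part of the spread within groups lay between mice. For mice 1 to 4, the variance of log2 CPM within groups was split into a part between mice and the rest. The part between mice was 89.1% for Wnt3, 86.9% for Ctnnb1, 80.0% for Tcf7l2, 79.3% for Fzd7, 72.3% for Tcf7, 64.0% for Fzd5 and 58.4% for Lgr4. All 7 were above the upper quartile of all genes tested, 57.1%, whose median was 34.3%. Lrp6 (31.8%) and Lrp5 (28.3%) were below that median.

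Mouse 3 was highest and mouse 2 lowest in Wnt3 in all 4 groups. The 4 libraries of mouse 3 held 10.3 to 13.5 CPM, those of mouse 2 held 6.84 to 8.07, and no library of another mouse fell within either range. Ctnnb1 ran the other way. Mouse 2 was highest in all 4 groups with 938 to 1003 CPM, above the 920 CPM that any other mouse reached, and mouse 3 was lowest in 3 of 4 groups. Tcf7l2 was lowest in mouse 3 in all 4 groups (68.5 to 81.9 CPM), while Fzd7 (60.3 to 65.4 CPM) and Lgr4 (229 to 262 CPM) were highest there in all 4. Across the 18 libraries, Wnt3 correlated with Fzd7 at r = 0.67, Tcf7 at 0.63, Ctnnb1 at -0.63 and Tcf7l2 at -0.76. The libraries share mice, so these are descriptions of 5 mice rather than 18 independent points.

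The summed Paneth markers were lowest in mouse 2, at 1988 to 2432 CPM. They were 2760 to 3688 CPM in mouse 1 and 2729 to 3571 in mouse 3. Mouse 4 had 2156 to 3089 CPM, which overlaps mouse 2, and mouse 5 had 2591 to 2709. Wnt3 was 8.66 to 10 CPM in mouse 1, 10.3 to 13.5 in mouse 3, 8.12 to 9.71 in mouse 4 and 9.68 to 9.91 in mouse 5. Over the 18 libraries Wnt3 correlated with the log2 sum of these markers at r = 0.73 (rho 0.71), and at 0.64 without the 2 most extreme libraries. This was not particular to Wnt3. Tcf7 had r = 0.72 (rho 0.70), Fzd7 0.52 (rho 0.46) and Tcf7l2 -0.65 (rho -0.77). The other members tested lay between -0.35 (Lrp6) and 0.28 (Lrp5). The part of these markers in the difference between mice was not tested.

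**Figure D5:**
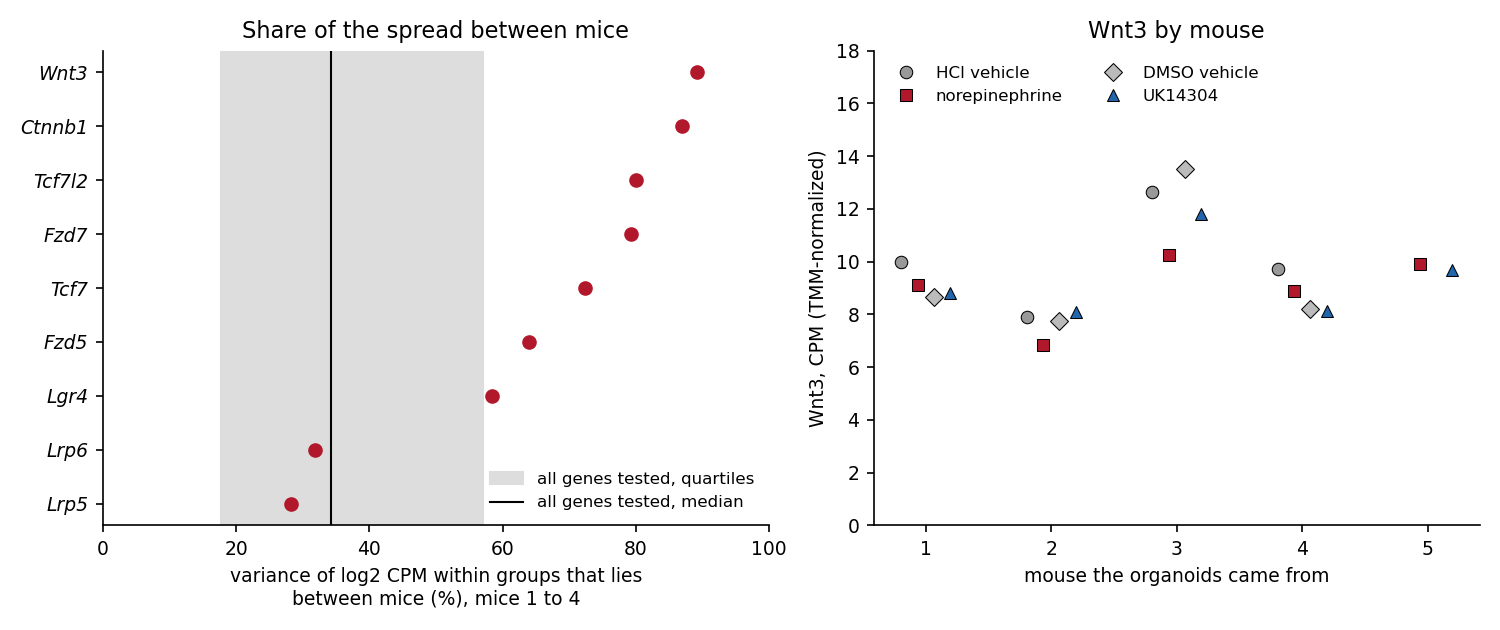
Left, share of the variance of log2 CPM within groups that lies between mice 1 to 4, for the 9 members (points) beside the quartiles (grey) and median (line) of all 15247 genes. Right, CPM of Wnt3 in each library by mouse and group. Wnt3 has the largest share at 89.1%, and mice 2 and 3 hold the lowest and highest values in every group.

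The wider pathway gave no call. Of 92 further genes in the lists of ligands, receptors, inhibitors, relay proteins, nuclear partners and targets, 58 were tested, and 0 passed for either agonist in edgeR, with or without the block. At an unadjusted p under 0.05 without the block there were 2 of the 58 with norepinephrine and 3 with UK14304, beside 6.18% and 11.2% of all genes. The median log2 fold change of the 58 was -0.05 for both agonists, against -0.01 and -0.00 over all genes.

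Among the highest genes of each list, Axin2, a scaffold of the complex that destroys β-catenin and a classic target, stood at 36.3 RPKM with log2 fold changes of -0.04 and 0.03, and Csnk1a1, the kinase that primes β-catenin, at 46.5 RPKM with 0.06 and 0.07. Rnf43, a ligase that removes Frizzleds, stood at 16.7 RPKM with -0.05 and -0.06. Of the 14 inhibitors 4 were tested, led by Kremen1 (5.00 RPKM) and Sfrp5 (4.58 RPKM), while Dkk1 and Sfrp2 had no count in any library. None of these passed.

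Of 18 target genes 17 were tested and 0 passed in edgeR with or without the block. Mmp7, listed as a Wnt target and also a Paneth protease that processes defensins, had the highest level, 88.8 RPKM, and with the block the smallest adjusted p. Its log2 fold changes were -0.26 and -0.19 (adjusted p = 0.713 and 0.589), and with the block -0.26 and -0.20 (adjusted p = 0.0563 and 0.0685). It passed in DESeq2 with the block (adjusted p = 0.00231 and 0.0299) and with the GC trend removed and the block (0.00785 and 0.0118 in edgeR). Myc, a growth regulator, had -0.02 with either agonist, and the stem cell targets Lgr5 and Ascl2 lay between -0.08 and 0.06. Of the 6 stem cell markers 0 passed for either agonist with or without the block.

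Without mouse 4 and with the block, 13 of the 67 pathway genes, Lrp5 among them, passed with norepinephrine, 3 higher and 10 lower, beside the 15.1% of all genes that did. Without the block, leaving out mouse 4 gave 0 pathway genes. The 13 included Wnt4 (-0.53, adjusted p = 0.0277 in edgeR), Ptk7, a pseudokinase that binds Wnts (-0.33, adjusted p = 0.00344), and Mmp7 (-0.30, adjusted p = 0.000138). The tankyrases Tnks and Tnks2, which mark Axin for destruction, were higher at 0.14 and 0.11, and Csnk1a1 at 0.11.

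The genes whose pattern over the 18 libraries was most like that of a member were named by the correlation of log2 CPM. For Wnt3 this was Cbfa2t3 (r = 0.92), a transcriptional corepressor. Cbfa2t3 too was highest in mouse 3, at 18.8 to 21.4 CPM, and lowest in mouse 2, at 13.3 to 15.4. For Lrp5 it was Epn1 (r = 0.98), with 62.5% GC in its longest transcript, and for Lrp6 they were Snhg14 (r = 0.95, 31.0% GC) and Birc6 (r = 0.94, 46.4% GC). For Lgr4 they were Klhl24 (r = 0.95) and Gsdme (r = 0.94), for Ctnnb1 Pex19 and B3gnt3 (both r = 0.95), and for Tcf7l2 Rbm47 and Fam13a (both r = 0.92). Fzd7 was most like Zfp503 (r = 0.88) and Tceal9 (r = 0.87), Tcf7 most like Dmap1 (r = 0.88) and 2510002D24Rik (r = 0.85), and Fzd5, which varied least, most like Wnt5b and Gm7932 (both r = 0.78). Wnt5b had 2 to 16 counts per library. Each was picked as the highest among all genes tested, over libraries that share mice and GC slopes.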

How the data were processed

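Messenger RNA of 18 organoid samples was read as single ends. The authors mapped them with STAR 2.7.3 to GRCm38 and counted reads per gene, with Subread 1.6.4 per the study's methods. The deposited table holds raw counts per gene, and its header names other versions, featureCounts 2.0.1 and Ensembl 102, and no strand setting. All 18 columns were matched by name, with 0 left unused. edgeR 4.0.16 (R 4.3.3; TMM, filterByExpr, robust quasi-likelihood fit) fitted 1 model of the 4 groups to 15247 genes, and genes with an adjusted p under 0.05 pass. It was checked on simulated data. The study used DESeq2 and named no model formula, and DESeq2 1.42.0 is an alternative here. RPKM is TMM-normalized CPM per kilobase of merged exons, and log2 CPM used a prior count of 2. Depth was 21.87 to 27.85 M counts, so that members with few counts are measured less precisely.

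Samples of the same mouse were paired by the mouse number in the labels. Their deviations from the group means correlated at 0.119 or more for norepinephrine and HCl and 0.155 or more for UK14304 and DMSO (4 pairs each). Over all 25 pairs of the same mouse in different groups the lowest was -0.212 and the mean 0.277. The mean was -0.0716 for different mice in different groups. Where nothing in the labels says that samples of different mice came from separate cultures on separate days, p-values measure the spread between these samples.

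The members and gene lists were chosen with earlier results of these data known. The text names the 10 members, leading genes of each pathway list, pathway genes that passed, and for each member the 2 genes most correlated with it, of which some are not reported here. The genes named from the fits without mouse 4 and the Lrp5 to Lrp6 ratio were chosen after their values were seen. GC content, taken from the longest transcript of each gene, was known for 15229 of the genes tested, and its trend was removed by lowess (span 0.3). The alternatives were DESeq2's size factors, no filter, a stricter filter (10 counts in each library), the block by mouse, only the groups compared, DESeq2, the GC trend removed, the ribosomal RNA split at 1% as a covariate, and leaving out each sample or mouse.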

Additional observations from a re-analysis of the deposited data

Results flagged for a closer look

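In groups of 4 or 5 samples, a sample was noted where its gap to the nearest other was too large a part of the group's range (Dixon's 95% limit). Of 40 combinations of member and group, 4 were noted, where chance alone gives about 1 in 20. The norepinephrine library of mouse 4 stood apart in 2 members: it held 207 CPM of Lrp5, against 167 to 175 in the other norepinephrine libraries, and 194 CPM of Lgr4, against 232 to 243. The GC slope of this library was 0.195, against -0.146 to -0.0699 in the others of its group. The DMSO library of mouse 3 stood apart in the other 2: it held 13.5 CPM of Wnt3, against 7.74 to 8.66 in the other DMSO libraries, and 251 CPM of Lgr4, against 210 to 214. Its GC slope was -0.0384, against 0.0574 to 0.121 in the others of its group, and mouse 3 was highest in Wnt3 and Lgr4 in all 4 groups.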

How the results depend on the processing

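Log2 values that round to 0.00 were taken to have no direction. With the mouse as a replicate block, 0 members passed for either agonist, as without it, and the block changed no member's call on all mice (Lrp5 -0.15 and -0.13). Of 387 values of the members for norepinephrine under the alternatives, 371 kept direction and call, of 360 for UK14304 352 did, of 297 for the difference of effects 276 and of 315 for the vehicles 302. Over all genes, UK14304 calls were 6 in edgeR, 47 in DESeq2, 186 with the block and 264 in DESeq2 with the block, and norepinephrine calls were 0, 0, 16 and 29. With the GC trend removed and the block they were 626 for UK14304 and 31 for norepinephrine. With only the groups compared and the block, UK14304 calls were 525. Pathway calls, 0 in edgeR, were 1 (Mmp7) for norepinephrine in DESeq2 with the block and with the GC trend removed and the block, and 1 for UK14304 in these and with only the groups compared and the block. The cause was not tested.

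The remaining alternatives with mice left out and the block, and those on libraries of lower ribosomal RNA share, were chosen after seeing the data. For norepinephrine in the latter with the block, 1 member and 14 pathway genes passed (Lrp5 -0.20), beside 19.6% of all genes. With the GC trend also removed, 2 members and 3 pathway genes passed (Lrp5 -0.12, Fzd5 0.11), beside 4.16% of all genes. For norepinephrine, leaving out any sample or mouse without the block gave 0 members and 0 pathway genes. With the block, leaving out a mouse gave 0 to 1 members and 0 to 13 pathway genes. Only leaving out mouse 4 gave more than 0 (Lrp5 -0.21), and 15.1% of all genes passed there. For UK14304, leaving out a mouse with the block gave 0 to 1 pathway genes and 23 to 585 genes in all. Removing the GC trend took Fzd5 from 0.04 to 0.08 with norepinephrine and from 0.03 to 0.07 with UK14304.

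Members near 0 turned sign without passing. With norepinephrine, the GC trend removed gave Fzd7 0.01 and Tcf7l2 -0.01, also -0.01 with the block. The lower ribosomal RNA libraries gave Tcf7l2 -0.02, -0.02 with the block and -0.04 with the GC trend also removed, and Fzd7 0.02 in the last. The ribosomal RNA split gave Wnt3 0.01 with UK14304 (with the block), Fzd5 -0.01 in the difference of effects and Fzd7 -0.01 between vehicles. Leaving out samples or mice, Tcf7l2 ran from -0.03 to 0.10 with norepinephrine (-0.01 without mouse 1 or mouse 4 with the block), and with UK14304 Wnt3 ran from -0.14 to 0.19 (0.02 without mouse 3 with the block) and Tcf7l2 from -0.09 to 0.04. The difference of effects ran from -0.34 to 0.01 for Wnt3, -0.01 to 0.04 for Fzd5, -0.04 to 0.08 for Fzd7, -0.10 to 0.02 for Lrp5, -0.06 to 0.03 for Lrp6, -0.12 to 0.01 for Lgr4, -0.06 to 0.02 for Ctnnb1, -0.02 to 0.12 for Tcf7l2 and -0.04 to 0.13 for Tcf7. Between vehicles it ran from -0.05 to 0.30 for Wnt3, -0.04 to 0.07 for Fzd7, -0.02 to 0.04 for Lrp5, -0.01 to 0.03 for Lrp6, -0.02 to 0.06 for Ctnnb1 and -0.03 to 0.10 for Tcf7l2. Wnt11, at 0 to 6 counts per library, was below what this depth can compare.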
